A study of Mus musculus with 3 samples.

Results

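The epidermal growth factor (EGF) receptor family and its ligands were followed across the cells of the mouse kidney cortex after ischemia-reperfusion injury (IRI). The group was drawn up by gene name, with no measured value in the rule, and held 10 genes: the ligands Egf, Hbegf, Areg, Ereg, Btc and Tgfa and the receptors Egfr, Erbb2, Erbb3 and Erbb4. Of these, 9 were counted among the 22535 genes of the series. Areg was not analysed here, and Ereg was not analysed in Sham here.

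EGF family ligands are made as membrane-bound precursors, which metalloproteases of the ADAM family cut loose so that they can reach neighbouring cells. The released ligand pairs receptors of the ErbB family at the cell surface, and the paired receptors signal through RAS and ERK, PI3K and AKT, and STAT3. In the kidney, Egf is known as a product of the thick ascending limb and distal convoluted tubule, where EGF also keeps up magnesium uptake, and EGFR is known for its part in tubular repair.

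All cells came from the kidney cortex of WT1CreERT2; Rosa26-tdTfl/+ mice, in which tamoxifen-activated Cre from the WT1 locus switches on the red reporter tdT in podocytes and parietal epithelial cells (PECs). Sham held cells from kidneys after sham surgery, and IRI24h-TDN held cells taken 24 h after severe bilateral IRI. Both were hand-made mixtures of sorted tdT+ and tdT- cells, enriched for tdT+ cells. IRI24h-TD held only tdT+ cells, also from 24 h after IRI. Each condition was 1 library of pooled kidneys on the BD Rhapsody platform, so there was no replicate, no difference between conditions was tested, and library and condition cannot be told apart. The sort and the mixing also set how many cells of each type a library holds, so numbers of cells were not compared.

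After barcodes with fewer than 200 detected genes or more than 50% mitochondrial UMIs (unique molecular identifiers, 1 per captured RNA molecule) were left out, 26760 of 30008 barcodes were kept. Of these, Sham gave 8047, IRI24h-TDN 9024 and IRI24h-TD 9689. Median depth was 7746, 9151 and 9529 UMIs per cell in the same order, and between 82 and 96 kept barcodes were shared by any pair of libraries. Cells were grouped into clusters without the use of the family's genes and named from fixed marker genes; every name below means cells like that type. A level is the class's UMIs of a gene scaled to a total of 1000000 UMIs (CPM), given with an exact Poisson 95% interval in brackets. A difference between libraries is the log2 ratio of 2 CPM values with an exact 95% interval. All intervals cover counting error only. Shares of cells with a UMI are also given after every cell was thinned to 2400 UMIs, since a deeper cell shows more genes. CPM was not compared between genes.

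The promoters of 3 genes around which the results turn are shown first: Egf, whose level differed most between the libraries, Tgfa, which was found beside Egf in podocytes, and Egfr, the receptor of all 5 ligands counted. These are the 250 bases before the RefSeq start of each gene on GRCm38.p6, read 5′ to 3′ on the gene's strand. Capitals mark matches, on either strand, to 1 of 5 motifs. The TATA box was searched as TATAAA. An HNF1 half-site, known from genes of the tubule, was searched as GTTAAT. The GC box was searched as GGGCGG, the AP-1 site, bound by FOS and JUN, as TGANTCA and the CCAAT box by the letters of its name.
Egf, chr3:129755323-129755572, minus strand: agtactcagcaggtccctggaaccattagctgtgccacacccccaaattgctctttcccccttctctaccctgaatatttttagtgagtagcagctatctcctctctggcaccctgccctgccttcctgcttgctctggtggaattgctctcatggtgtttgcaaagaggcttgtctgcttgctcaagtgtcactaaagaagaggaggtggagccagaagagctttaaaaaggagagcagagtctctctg
Tgfa, chr6:86194972-86195221, plus strand: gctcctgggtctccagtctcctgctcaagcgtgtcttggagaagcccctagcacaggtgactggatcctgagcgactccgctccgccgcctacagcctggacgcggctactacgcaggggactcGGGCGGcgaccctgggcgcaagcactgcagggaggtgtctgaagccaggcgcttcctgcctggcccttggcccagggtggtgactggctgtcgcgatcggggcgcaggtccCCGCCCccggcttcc
Egfr, chr11:16751953-16752202, plus strand: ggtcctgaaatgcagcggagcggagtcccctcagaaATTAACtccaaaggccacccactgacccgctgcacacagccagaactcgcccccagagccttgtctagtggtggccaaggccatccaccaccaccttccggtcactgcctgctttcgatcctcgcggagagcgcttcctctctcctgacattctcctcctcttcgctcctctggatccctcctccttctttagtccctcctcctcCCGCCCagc
The Egf window held none of the 5 motifs and had a GC content of 50.4%. The Tgfa window, at 69.2% GC, held the GC box on both strands. The Egfr window, at 60.8% GC, held the GC box and the half-site, both read on the opposite strand. Among 32851 RefSeq promoter windows of this length, 32.7% held the GC box, 6.43% the half-site, 12.4% the TATA box, 6.75% the AP-1 site and 33.9% the CCAAT box. These are matches of letters only.

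Egf encodes the founding ligand of the family, and in Sham it was highest in cells of the ascending limb of Henle's loop (marked by Slc12a1 and Umod) and of the distal convoluted tubule (marked by Slc12a3). The gene lies at chr3:129677565-129755316 on the minus strand (mm10). Cells of the ascending limb held Egf at 9826 CPM in Sham (124 cells, 8561 UMIs) and at 156 [146, 168] CPM in IRI24h-TDN (477 cells, 791 UMIs). The log2 ratio was -5.97 [-6.08, -5.87], a level 62.9-fold lower. Cells of the distal convoluted tubule held it at 4099 CPM in Sham (53 cells, 2695 UMIs) and at 158 [149, 167] CPM in IRI24h-TDN (484 cells, 1147 UMIs), a log2 ratio of -4.70 [-4.80, -4.60]. The level was thus lower after IRI in both segments that are known to make Egf, and by far more than counting error.

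The lower level was spread over the cells of each segment. In the ascending limb, the median cell held 87.8 Egf UMIs per 10000 in Sham, with 0.929 at the 10th percentile and 208 at the 90th percentile, against a median of 0.865 and a 90th percentile of 3.57 in IRI24h-TDN. The median cell of the distal convoluted tubule held 37.1 per 10000 in Sham and 1.01 in IRI24h-TDN. Cells above 10 Egf UMIs per 10000 made up 79.8% of the ascending limb in Sham and 0.839% in IRI24h-TDN, so that the bulk of the cells in the 2 libraries did not overlap. Cells with any Egf UMI went from 90.3% in Sham to 56.0% in IRI24h-TDN in the ascending limb (90.4% and 23.6% after thinning). For the distal convoluted tubule these shares were 98.1% and 68.2% (92.5% and 30.5% after thinning).

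**Figure D1:**
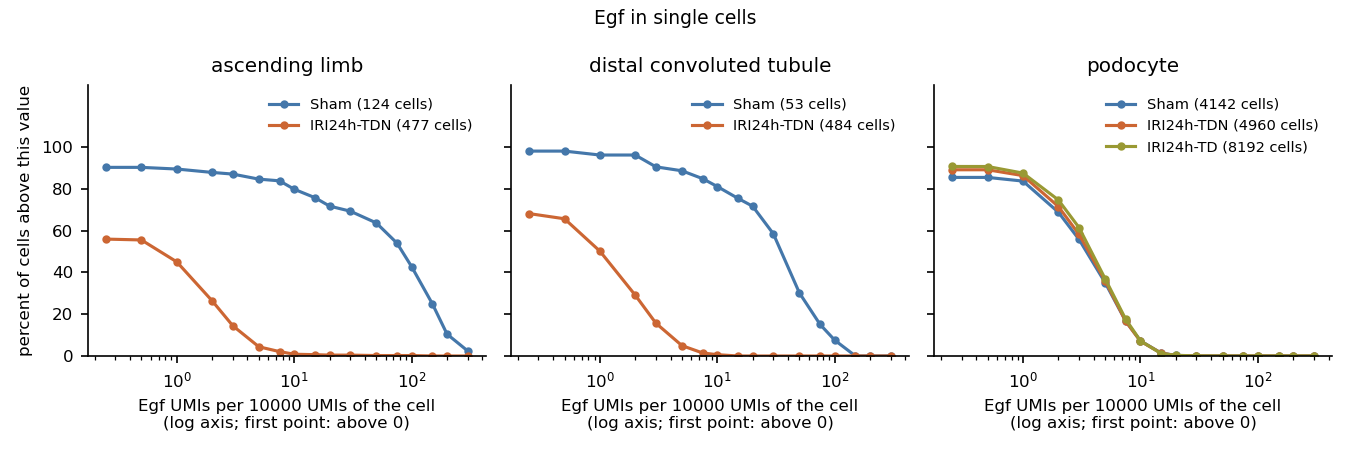
Share of cells (y axis, percent) with more Egf UMIs per 10000 UMIs than the value on the x axis (log scale; the leftmost point is any UMI), by library, for 3 classes. The Sham curves of the ascending limb and distal convoluted tubule lie well to the right of the IRI24h-TDN curves, with medians of 87.8 against 0.865 and 37.1 against 1.01, while the 3 podocyte curves lie close together.

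Other genes of the same segments were lower too, by less than Egf except for Pvalb. These genes took part in the grouping of the cells, so they are given only for scale. Slc12a1, the salt transporter of the ascending limb, stood there at 8575 CPM in Sham and 1754 CPM in IRI24h-TDN (log2 ratio -2.29), and Umod, which encodes uromodulin, at 3502 and 2528 CPM (-0.47). Cldn16, a tight junction protein of magnesium reabsorption, had a log2 ratio of -1.48 and the potassium channel Kcnj1 one of -1.19. Ppp1r1b, a further marker of the ascending limb, differed more, at 280 CPM in Sham and 22.5 CPM in IRI24h-TDN. In the distal convoluted tubule, Slc12a3 had a log2 ratio of -0.77, while Pvalb, a calcium-binding protein of the early part of this segment, stood at 905 CPM in Sham and 28.7 CPM in IRI24h-TDN (-4.98). Klhl3, a further marker of this segment, stood at 619 and 71.1 CPM. The summed level of 10 podocyte markers moved with Egf as well, from 2398 CPM in Sham to 1270 CPM in IRI24h-TDN in the ascending limb and from 4370 to 2787 CPM in the distal convoluted tubule, and its part in the Egf values was not tested.

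Podocytes, the filtering cells of the glomerulus, also held Egf, at levels that hardly differed between libraries. Egf stood at 438 [431, 445] CPM in Sham (4142 cells, 15397 UMIs), 450 [444, 456] CPM in IRI24h-TDN (4960 cells, 21102 UMIs) and 468 [463, 473] CPM in IRI24h-TD (8192 cells, 38383 UMIs). The log2 ratio of IRI24h-TDN to Sham was 0.04 [0.01, 0.07]. At least 1 Egf UMI was found in 85.5%, 89.2% and 90.7% of podocytes (57.0%, 58.6% and 60.2% after thinning). In leukocyte classes, which should lack Egf, this share was 7.67% in Sham and 8.59% in IRI24h-TDN (4.32% and 4.86% after thinning), at median depths of 4054 and 5823 UMIs. Most podocytes of IRI24h-TD fell into other clusters than those of Sham and IRI24h-TDN, so that only the level over the whole class was set side by side. Because podocytes were enriched, they gave 54.1% of Sham's Egf UMIs, 82.9% of those of IRI24h-TDN and 95.7% of those of IRI24h-TD, while the share from the ascending limb was 30.1% in Sham and 3.11% in IRI24h-TDN.

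In the remaining classes Egf was low and varied with a few cells. PECs, which line Bowman's capsule, held 29.7 CPM in Sham, 27.4 CPM in IRI24h-TDN and 55.6 CPM in IRI24h-TD, and proximal tubule epithelial cells (PTECs) held 58.6 CPM in Sham. Podocyte markers together stood at 3409, 2295 and 5772 CPM in these PECs, in the order Sham, IRI24h-TDN, IRI24h-TD, and their part in the Egf level was not tested. Cells of the connecting tubule and principal cells formed a single class, called principal cells below, and held 20.3 and 22.6 CPM in Sham and IRI24h-TDN. Endothelial cells held 161 CPM in Sham and 74.3 CPM in IRI24h-TDN (log2 ratio -1.11 [-1.68, -0.58]), but once the 6% of cells with the highest doublet scores were left out the log2 ratio was 0.29. The cluster of intercalated cells led by Slc26a4 held 9.75 and 24.7 CPM (1.34 [0.24, 2.70]), and -1.08 without those cells. The cluster led by Slc4a1 held 31.1 and 56.7 CPM (0.87), and -3.20 without them. No direction was therefore read from Egf in these 3 classes.

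**Figure D2:**
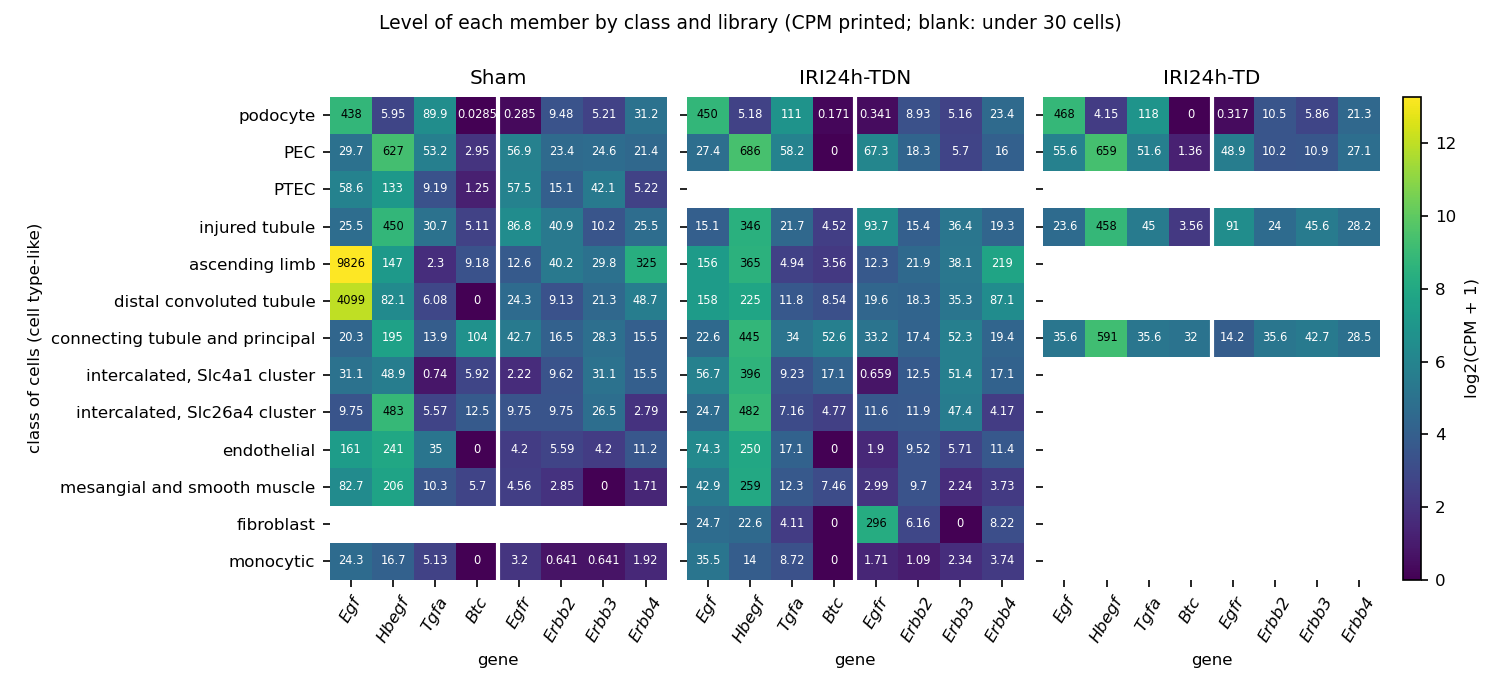
CPM of 8 genes of the family (x axis: ligands left, receptors right) in each class (y axis) for each library, coloured by log2(CPM + 1), with CPM printed and classes under 30 cells left blank. Ereg, with 10 UMIs in all, is not drawn. Egf in Sham peaks at 9826 CPM in the ascending limb, Hbegf lies above 600 CPM in PECs of each library, Btc peaks in principal cells and Erbb4 in the ascending limb.

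Hbegf encodes heparin-binding EGF-like growth factor, a ligand known to be induced early in injured epithelium. It was highest among the named classes in PECs, with 627 [609, 645] CPM in Sham (857 cells, 4681 UMIs), 686 [632, 743] CPM in IRI24h-TDN (102 cells, 601 UMIs) and 659 [618, 702] CPM in IRI24h-TD (176 cells, 971 UMIs). The log2 ratio of IRI24h-TDN to Sham was 0.13, with an interval from 0.00 to 0.25. At least 1 Hbegf UMI was seen in 69.0%, 73.5% and 76.7% of PECs (52.8%, 58.6% and 65.0% after thinning). Podocytes were the class with the lowest share, 4.03%, 3.81% and 3.38% (1.12%, 1.13% and 0.790% after thinning), and held 5.95, 5.18 and 4.15 CPM. PECs gave 55.4% of all Hbegf UMIs in Sham. One of the 3 PEC clusters came almost only from Sham (277 of its 282 cells).

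Along the distal nephron Hbegf was higher in IRI24h-TDN than in Sham. The ascending limb held it at 147 [123, 175] CPM in Sham (128 UMIs) and 365 [348, 382] CPM in IRI24h-TDN (1845 UMIs), a log2 ratio of 1.31 [1.05, 1.58]. A single Sham cell held 38 of the 128 UMIs, and without the highest cell of each library the log2 ratio was 1.75. With at most 20% mitochondrial UMIs allowed it was 0.63, and as a mean over cells 2.07. Cells with an Hbegf UMI made up 18.5% of the class in Sham and 63.1% in IRI24h-TDN (12.2% and 38.7% after thinning). The distal convoluted tubule held 82.1 [61.7, 107] and 225 [214, 236] CPM, a log2 ratio of 1.45 [1.06, 1.87], and 0.97 as a mean over cells. Cells of the connecting tubule and principal cells of the collecting duct, marked by Aqp2, held 195 [176, 216] and 445 [423, 467] CPM (1.19 [1.02, 1.36]), with 591 [504, 688] CPM in the 30 such cells of IRI24h-TD. The markers of this class stood together at 35658 CPM in Sham and 15880 CPM in IRI24h-TDN. Among them S100g stood at 14840 and 2532 CPM, Calb1 at 3476 and 1045 CPM and Aqp2 at 5609 and 5902 CPM. Injured tubule markers in this class stood at 6.40 and 2554 CPM. The part of this shift in the values of Hbegf and other genes in this class was not tested. Higher Hbegf thus went with lower Egf in the ascending limb and distal convoluted tubule, whereas in principal cells Egf lay below leukocyte classes in both libraries.

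Intercalated cells, the acid- and base-secreting cells of the collecting duct, fell into 2 clusters that differed in Hbegf. In the cluster led by Slc4a1, the exchanger of acid-secreting cells, Hbegf stood at 48.9 [37.8, 62.2] CPM in Sham (126 cells, 66 UMIs) and 396 [364, 428] CPM in IRI24h-TDN (137 cells, 600 UMIs), a log2 ratio of 3.02 [2.65, 3.41]. In the same cluster the summed markers of the connecting tubule and principal cells stood at 653 CPM in Sham and 2798 CPM in IRI24h-TDN, and Slc4a1 itself at 2529 and 401 CPM. Their part in the Hbegf value was not tested. In the cluster led by Slc26a4, the exchanger of base-secreting cells, it stood at 483 [434, 537] CPM in Sham (54 cells) and 482 [458, 506] CPM in IRI24h-TDN (224 cells), a log2 ratio of -0.01 [-0.17, 0.17]. When both clusters were taken as 1 class the log2 ratio was 1.19, so the value rests on how the cells were divided.

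Elsewhere Hbegf differed less. Cells of the injured tubule, marked by Krt20, Havcr1 and Sox9, held 450 [361, 554] CPM in Sham, 346 [327, 367] CPM in IRI24h-TDN and 458 [435, 483] CPM in IRI24h-TD. The 55 Sham cells of this class had a median of only 1688 UMIs, and 42 of them were too shallow to be thinned. Of these Sham cells 1.82% held a Havcr1 UMI, 9.09% Krt20 and 45.5% Sox9, so in Sham the name is weakly borne out. Summed PEC markers stood at 4434, 4629 and 6660 CPM in this class in Sham, IRI24h-TDN and IRI24h-TD. Injured tubule markers stood at 1359, 2702 and 1383 CPM. The part of PEC-like cells in these values was not tested. Endothelial cells held 241 and 250 CPM in Sham and IRI24h-TDN. Mesangial and smooth muscle cells held 206 and 259 CPM (log2 ratio 0.33 [0.14, 0.52]), PTECs held 133 CPM in Sham, and leukocyte classes held 13.9 and 14.9 CPM. The highest level of all, 1001 [911, 1098] CPM, was in a small unnamed cluster of 33 IRI24h-TDN cells led by Sprr1a, Krt19 and Krt5.

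**Figure D3:**
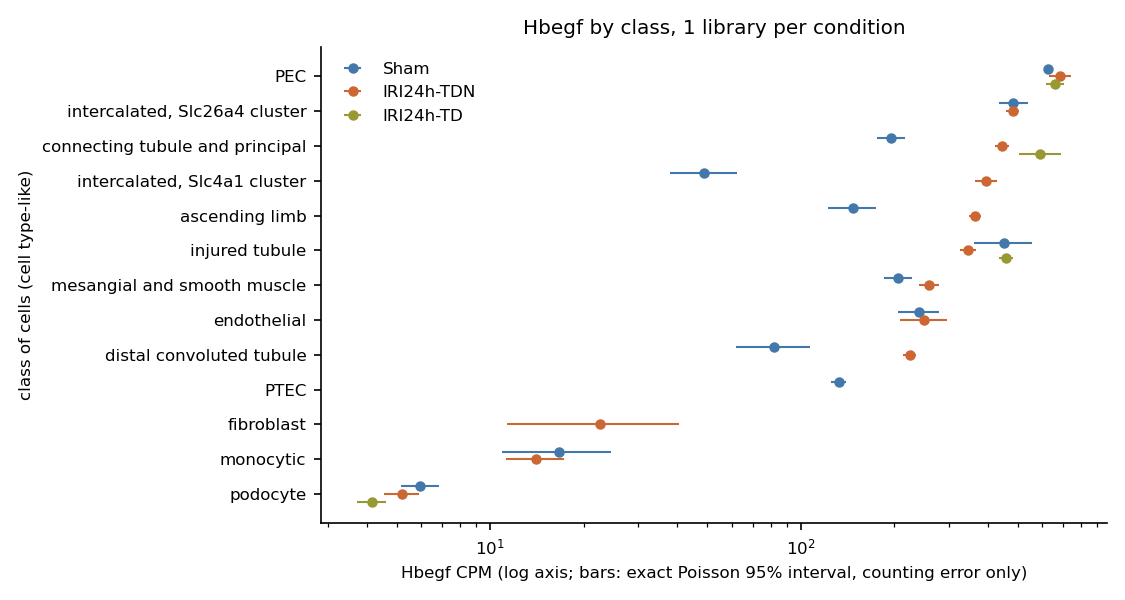
Hbegf CPM (x axis, log scale) by class (y axis) for each library with at least 30 cells of the class; bars are exact Poisson 95% intervals and cover counting error only. Among named classes PECs lie highest in all 3 libraries at 627 to 686 CPM, and the Slc4a1 cluster of intercalated cells goes from 48.9 CPM in Sham to 396 CPM in IRI24h-TDN.

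Tgfa encodes transforming growth factor alpha. Among named classes of at least 30 cells it was highest in podocytes, and it was also found in PECs and the injured tubule. Podocytes held 89.9 [86.8, 93.1] CPM in Sham, 111 [108, 114] CPM in IRI24h-TDN and 118 [115, 120] CPM in IRI24h-TD. Both libraries after IRI lay above Sham, with a log2 ratio of 0.30 [0.24, 0.37] for IRI24h-TDN. The share of podocytes with a Tgfa UMI was 43.6%, 54.4% and 58.8% (17.6%, 21.97% and 23.72% after thinning), while the Slc4a1 cluster of intercalated cells, the lowest class in Sham, had 0.794% (0.840% after thinning) at a median depth of 10166 UMIs. PECs held 53.2, 58.2 and 51.6 CPM (397, 51 and 76 UMIs from 857, 102 and 176 cells). In the same order, the injured tubule gave 6, 72 and 139 Tgfa UMIs from 55, 206 and 256 cells. Principal cells held 13.9 CPM in Sham and 34.0 CPM in IRI24h-TDN (log2 ratio 1.29 [0.67, 1.97]).

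Podocytes with UMIs of both Egf and Tgfa were also counted. After thinning, 10.01%, 13.74% and 14.1% of podocytes in Sham, IRI24h-TDN and IRI24h-TD held a UMI of both ligands. These shares were not set against those that separate detection of each gene would give, so no link within cells is read from them. There were 4.88, 4.06 and 3.98 Egf UMIs for each Tgfa UMI in podocytes, and 5.33 and 4.30 in the leukocyte classes of Sham and IRI24h-TDN. The low Egf and Tgfa counts of leukocytes (64 and 12 UMIs in Sham) thus lay close to the proportion seen in podocytes.

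Btc encodes betacellulin and was mainly found in the connecting tubule and principal cells. There it stood at 104 [89.9, 120] CPM in Sham (195 UMIs), 52.6 [45.3, 60.8] CPM in IRI24h-TDN (184 UMIs) and 32.0 [14.6, 60.8] CPM in IRI24h-TD (9 UMIs), with a log2 ratio of -0.98 [-1.28, -0.69] for IRI24h-TDN. These cells gave 72.8% of all Btc UMIs in Sham and 51.8% in IRI24h-TDN. A single Sham cell held 28 of the 195 UMIs, and under alternatives the log2 ratio ran from -1.13 to -0.81. The share of cells with a UMI was nearly the same, 29.2% and 28.9% (12.8% and 9.51% after thinning), against 0.240% of leukocytes in Sham. In IRI24h-TDN leukocytes had 0 Btc UMIs, with an interval up to 0.549 CPM. The distal convoluted tubule had 0 Btc UMIs in Sham, with an interval up to 5.61 CPM, and 8.54 [6.55, 10.9] CPM in IRI24h-TDN (62 UMIs). In the other tubular classes Btc rested on few UMIs: the ascending limb had 8 in Sham and 18 in IRI24h-TDN, and the 2 intercalated clusters had 8 and 26, and 9 and 16. Ereg, which encodes epiregulin, had 10 UMIs in both IRI libraries together, and 7 of them were in 1 fibroblast-like cell of IRI24h-TD.

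Egfr encodes the EGF receptor and lies at chr11:16752203-16918158 on the plus strand (mm10). The highest level was in fibroblasts, with 296 [250, 348] CPM in 37 cells of IRI24h-TDN, 73.0% of which held a UMI (40.5% after thinning). Cells of the injured tubule followed, with 86.8 [50.6, 139] CPM in Sham, 93.7 [83.5, 105] CPM in IRI24h-TDN and 91.0 [80.6, 102] CPM in IRI24h-TD. Few of the Sham cells of this class held Havcr1 or Krt20. PECs held 56.9 [51.6, 62.6], 67.3 [51.2, 86.8] and 48.9 [38.2, 61.5] CPM in the same order, and PTECs held 57.5 [52.8, 62.5] CPM in Sham. Over the whole class the intervals of PECs overlapped between all libraries. Without the PEC cluster that came almost only from Sham, which held 268 of the 425 Sham UMIs, the Egfr log2 ratio of IRI24h-TDN to Sham in PECs was 0.89 in place of 0.24. In the largest PEC cluster Egfr stood at 28.6 [22.2, 36.4] CPM in Sham and 58.0 [36.7, 87.0] CPM in IRI24h-TDN (55 cells). In IRI24h-TD (119 cells) it stood there at 38.5 [26.3, 54.4] CPM, with an interval that overlapped that of Sham. Principal cells held 42.7 and 33.2 CPM, the distal convoluted tubule 24.3 and 19.6 CPM and the ascending limb 12.6 and 12.3 CPM in Sham and IRI24h-TDN. Among classes of at least 30 cells in each library, podocytes had the least Egfr, at 0.285, 0.341 and 0.317 CPM, below the 3.23 and 1.64 CPM of leukocyte classes. Of all Egfr UMIs in Sham, 47.5% came from PTECs and 36.6% from PECs, whereas in IRI24h-TDN, which had 8 PTECs, 29.0% came from the injured tubule.

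Erbb2 encodes the family member without a known ligand, which pairs with the others. It was spread thinly over the epithelium. The ascending limb held 40.2 [28.0, 55.9] CPM in Sham and 21.9 [18.0, 26.4] CPM in IRI24h-TDN (log2 ratio -0.87 [-1.43, -0.28]). PECs held 23.4, 18.3 and 10.2 CPM in Sham, IRI24h-TDN and IRI24h-TD, and podocytes 9.48, 8.93 and 10.5 CPM. The PEC cluster that came almost only from Sham held 112 of the 175 Erbb2 UMIs of Sham PECs, and its part in the PEC values was not tested. Leukocyte classes held 1.39 and 1.34 CPM. In mesangial and smooth muscle cells the log2 ratio was 1.77 [0.36, 3.50], from 5 and 26 UMIs.

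Erbb3 encodes a receptor with little kinase activity of its own that binds neuregulins. It was found in most tubular classes and was higher in IRI24h-TDN in the collecting duct. The distal convoluted tubule (21.3 [11.6, 35.7] and 35.3 [31.1, 39.9] CPM) and the ascending limb (29.8 and 38.1 CPM) went the same way, with overlapping intervals. Principal cells held 28.3 [21.2, 37.0] CPM in Sham and 52.3 [45.0, 60.5] CPM in IRI24h-TDN (log2 ratio 0.89 [0.44, 1.36]). The part of the marker shift in that class, given above, was not tested. The Slc4a1 cluster of intercalated cells held 31.1 and 51.4 CPM (0.73 [0.17, 1.30]) and the Slc26a4 cluster 26.5 and 47.4 CPM (0.84 [0.15, 1.61]). PTECs held 42.1 CPM in Sham. PECs went the other way, with 24.6 [21.2, 28.5] CPM in Sham (184 UMIs), 5.70 [1.85, 13.3] CPM in IRI24h-TDN (5 UMIs) and 10.9 [6.21, 17.6] CPM in IRI24h-TD (16 UMIs). The log2 ratio of IRI24h-TDN to Sham in PECs was -2.11 [-3.75, -0.86]. It was -0.66 without the PEC cluster that came almost only from Sham, which held 153 of the 184 UMIs. PTEC markers together stood at 4041 CPM in the PECs of Sham, 573 CPM in those of IRI24h-TDN and 144 CPM in those of IRI24h-TD, and their part in this value was not tested. Leukocyte classes held 0.462 and 2.53 CPM.

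Erbb4 encodes a neuregulin receptor that also binds HB-EGF and betacellulin. It was highest in the ascending limb, where Egf was also highest. It stood there at 325 [288, 365] CPM in Sham and 219 [207, 233] CPM in IRI24h-TDN (log2 ratio -0.57 [-0.76, -0.37]), with a UMI in 70.2% and 69.6% of cells (52.2% and 34.9% after thinning). The distal convoluted tubule held more in IRI24h-TDN, at 87.1 [80.4, 94.1] CPM against 48.7 [33.3, 68.7] CPM in Sham (0.84 [0.33, 1.40]). Podocytes held 31.2 [29.4, 33.1], 23.4 [22.1, 24.9] and 21.3 [20.3, 22.3] CPM in Sham, IRI24h-TDN and IRI24h-TD, so that both IRI libraries lay below Sham. Leukocyte classes held 1.85 and 4.02 CPM, with a UMI in 0.719% and 1.8% of cells.

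Ligand and receptor in the same cell were counted after thinning. The shares were not set against those that separate detection of each gene would give, so they are counts only. In the ascending limb, cells with both Egf and Erbb4 made up 44.3% in Sham and 7.87% in IRI24h-TDN, while cells with both Hbegf and Erbb4 made up 6.96% and 14.9%. Among PECs, 5.26%, 8.08% and 6.25% held both Hbegf and Egfr in Sham, IRI24h-TDN and IRI24h-TD. In the injured tubule the share with both Hbegf and Egfr was 7.54% in IRI24h-TDN and 8.25% in IRI24h-TD. Podocytes, with the most Egf and Tgfa UMIs of these libraries, had an Egfr UMI in 0.241%, 0.282% and 0.281% of cells before thinning.

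**Figure D4:**
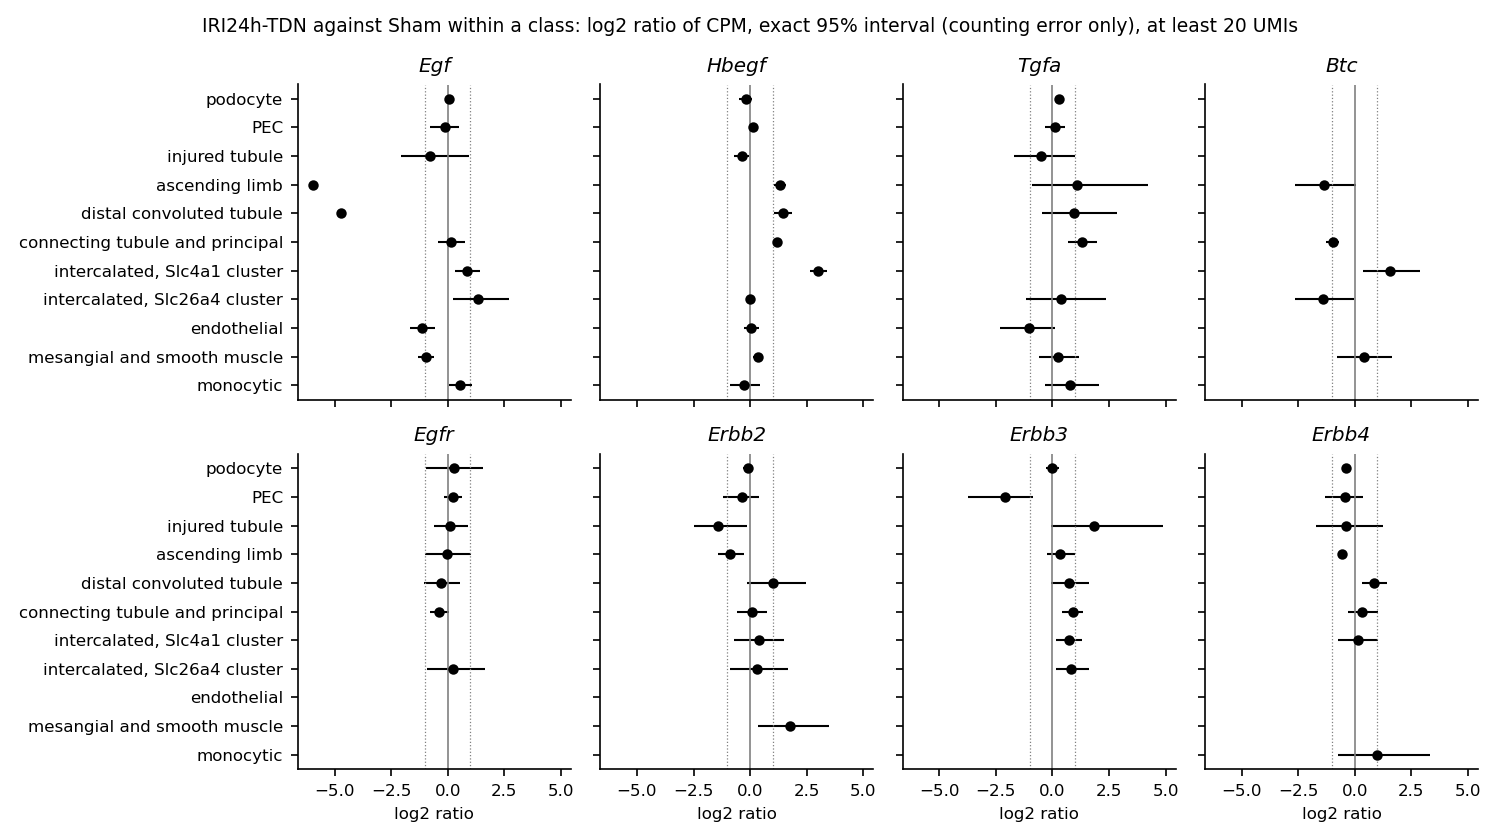
Log2 ratio of CPM in IRI24h-TDN to Sham (x axis) for each gene by class (y axis), for genes with at least 20 UMIs in the pair and above 0 in both libraries; bars are exact 95% intervals (counting error only) and dotted lines mark 2-fold. Egf in the ascending limb and distal convoluted tubule lies far to the left, at -5.97 and -4.70, and Hbegf lies past 2-fold to the right in 4 classes.

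Members past a fold of 2 were counted in each class among genes with at least 20 UMIs in the pair of libraries, beside the share of all genes. In the ascending limb 2 of 8 members were higher (Hbegf and Tgfa, the latter from 2 and 25 UMIs) and 2 were lower (Egf and Btc), where 9.4% of all genes were higher and 12% were lower. In the distal convoluted tubule 2 of 8 were higher and 1 was lower, against 10.6% and 10.6% of all genes. In principal cells 2 of 8 were higher and 0 lower (9.19% and 7.4%). The Slc4a1 cluster had 2 of 6 higher and 0 lower (8.57% and 6.72%), and the Slc26a4 cluster 1 of 7 higher and 1 lower (13.1% and 6.27%). In PECs 0 of 8 were higher and 1 lower (5.51% and 12.7%), and in podocytes 0 of 7 were past 2-fold either way (5.43% and 9.11%). Against Sham, IRI24h-TD podocytes had 0 of 7 past 2-fold (5.48% higher and 11.1% lower over all genes), and IRI24h-TD PECs had 0 of 8 higher and 3 lower, Btc, Erbb2 and Erbb3 (4.7% and 13.3%). Of the Sham UMIs behind these 3 values, the PEC cluster that came almost only from Sham held 12 of 22, 112 of 175 and 153 of 184. Its part in the 3 lower values was not tested. The injured tubule had 1 of 7 higher and 1 lower (15% and 12.2%), endothelial cells 0 of 3 higher and 2 lower (6.57% and 9.5%), mesangial and smooth muscle cells 1 of 5 higher and 0 lower (4.57% and 6.09%), and monocytic cells 0 of 4 either way (14.7% and 7.37%). Over all genes, the share in these classes of IRI24h-TDN ran from 4.57% to 15% higher and from 6.09% to 12.7% lower. Summed over the 11 classes of IRI24h-TDN, 11 of 71 values were past 2-fold higher and 8 lower. Members of 1 class share its cells, so this sum is a count only. With so few members in each class, no result about the family was read from these counts. The largest single values among them were Egf in the ascending limb and distal convoluted tubule and Hbegf in the Slc4a1 cluster.

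Genes downstream of the receptors were taken from lists of known pathway members and read in the same way. ERK-induced genes are switched on early by growth factor signals. In podocytes 7 of 12 were higher and 0 lower (5.43% and 9.11% of all genes), with a median log2 ratio of 1.52 against -0.05 over all genes. Ccnd1, which encodes cyclin D1, stood at 23.1 CPM in Sham and 189 CPM in IRI24h-TDN (log2 ratio 3.03). The transcription factor genes Fosl1 and Etv4 had log2 ratios of 4.55 (7 and 219 UMIs) and 4.36 (4 and 110 UMIs), and the urokinase receptor gene Plaur one of 2.86 (3 and 29 UMIs). IRI24h-TD podocytes also had 7 of 12 higher than Sham and 0 lower (5.48% and 11.1% of all genes), with Ccnd1 at 199 CPM. In PECs, 4 of 12 were higher and 1 lower (5.51% and 12.7% over all genes), led by Plaur at 5.36 and 54.8 CPM (3.35). The Slc26a4 cluster had 6 of 10 higher and 0 lower (13.1% and 6.27% of all genes), with a median of 1.11 against 0.07 over all genes. There Fosl1 had a log2 ratio of 4.80 [2.29, 10.1], from 1 and 130 UMIs, and Egr2 one of 2.70.

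In the tubule the same list was split. The ascending limb had 3 of 11 higher and 1 lower (9.4% and 12% over all genes), with Etv4 at 1.65, Myc at 1.48 and Ccnd1 at -1.76. The distal convoluted tubule had 2 of 12 higher and 3 lower, where 10.6% of all genes were past 2-fold each way, with Egr1 at -1.43 and Ier2 at -1.34. Principal cells had 4 of 12 higher and 3 lower (9.19% and 7.4% over all genes). In principal cells Plaur had 0 UMIs in Sham and 126 in IRI24h-TDN, a level at least 22.5-fold higher with 3 UMIs set as the floor in Sham, and Myc a log2 ratio of 3.35. Early genes of this kind are also known to respond to the handling of tissue. Of 12 genes of the stress of dissociation, 7 were lower in the distal convoluted tubule (10.6% over all genes), among them Hspa1a at -2.32 and Hsp90aa1 at -1.90, both heat shock proteins. Of the same list in the ascending limb, 3 were lower and Atf3 was higher (1.57), beside 12% and 9.4% of all genes. In podocytes 2 were lower and Zfp36 was higher (1.68), beside 9.11% and 5.43% of all genes. The part of handling in the ERK-induced genes was not tested.

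Feedback inhibitors are induced by the pathway and damp it. In the ascending limb 0 of 16 were lower and 5 higher (12% and 9.4% of all genes), with a median of 0.42 against -0.08 over all genes. The 5 higher were Dusp5, a phosphatase of ERK (log2 ratio 2.05), Spry2, a Sprouty protein (1.95), Socs3, an inhibitor of STAT3 signalling (1.94), Dusp4 (1.62) and Errfi1, which binds and blocks EGFR (1.59, from 27.5 and 83.0 CPM). Podocytes had 3 of 17 higher (5.43% of all genes), Socs3 (1.39), Dusp5 (1.32) and Dusp6 (1.10). PECs had 2 of 18 higher (5.51% of all genes), Socs3 (1.72) and Dusp4 (1.31). The Slc26a4 cluster had 5 of 15 higher (13.1% of all genes), led by Socs3 (2.58) and Spry4 (2.53, from 1 and 27 UMIs). The Slc4a1 cluster had 2 of 14 higher (8.57% of all genes), Socs3 (2.32) and Errfi1 (1.71). Socs3 was past 2-fold higher in each of these 5 classes and in principal cells (1.58).

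Of the proteases and their regulators that release the ligands, few were past 2-fold in epithelial classes. Of the list of 8, Adam10 was past 2-fold higher in principal cells (log2 ratio 1.44), the Slc26a4 cluster (1.51) and the Slc4a1 cluster (1.06), where Rhbdf2, an iRhom that guides ADAM17, was also higher (1.19). Adam17 had log2 ratios of -0.66 in the ascending limb, 0.06 in the distal convoluted tubule and 0.04 in PECs. In PECs only Adam9 (1.03) was past 2-fold among 6 genes with enough UMIs, where 5.51% of all genes were higher and 12.7% lower. In podocytes 0 of 6 were past 2-fold (5.43% and 9.11% of all genes). Of the membrane partners of HB-EGF, Cd9 had a log2 ratio of 0.70 and Cd44 one of 0.78 in PECs. Among other ligands of the family, the neuregulin gene Nrg1 stood at 31.9 and 24.0 CPM in PECs and at 3.04 and 14.9 CPM in the distal convoluted tubule (2 and 108 UMIs, log2 ratio 2.29 [0.40, 5.35]). Of the 17 genes that relay the signal from receptor to ERK, PI3K and STAT, 0 were past 2-fold in podocytes and PECs. Nras, a small GTPase of the relay, was higher in the distal convoluted tubule (1.46) and the ascending limb (1.23), and Stat3 in the distal convoluted tubule (1.03).

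Of 5 magnesium-handling genes with enough UMIs in the distal convoluted tubule, 3 were past 2-fold lower and 0 higher (10.6% over all genes each way), with a list median of -1.85 against -0.02 over all genes. They were Cnnm2, a magnesium transport regulator (242 and 56.6 CPM, log2 ratio -2.09), Slc41a3, a magnesium carrier (44.1 and 10.3 CPM, -2.09), and Trpm6, the apical magnesium channel (318 and 88.3 CPM, -1.85). Trpm6 was among the genes that could shape the grouping of cells. The summed markers of the connecting tubule and principal cells also stood at 6680 CPM in this class in Sham and 885 CPM in IRI24h-TDN, and their part in these values was not tested. In principal cells Trpm6 (-1.83) and Cnnm2 (-1.20) were lower too. In the ascending limb Fxyd2, a subunit of the sodium pump, was higher (1.22).

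**Figure D5:**
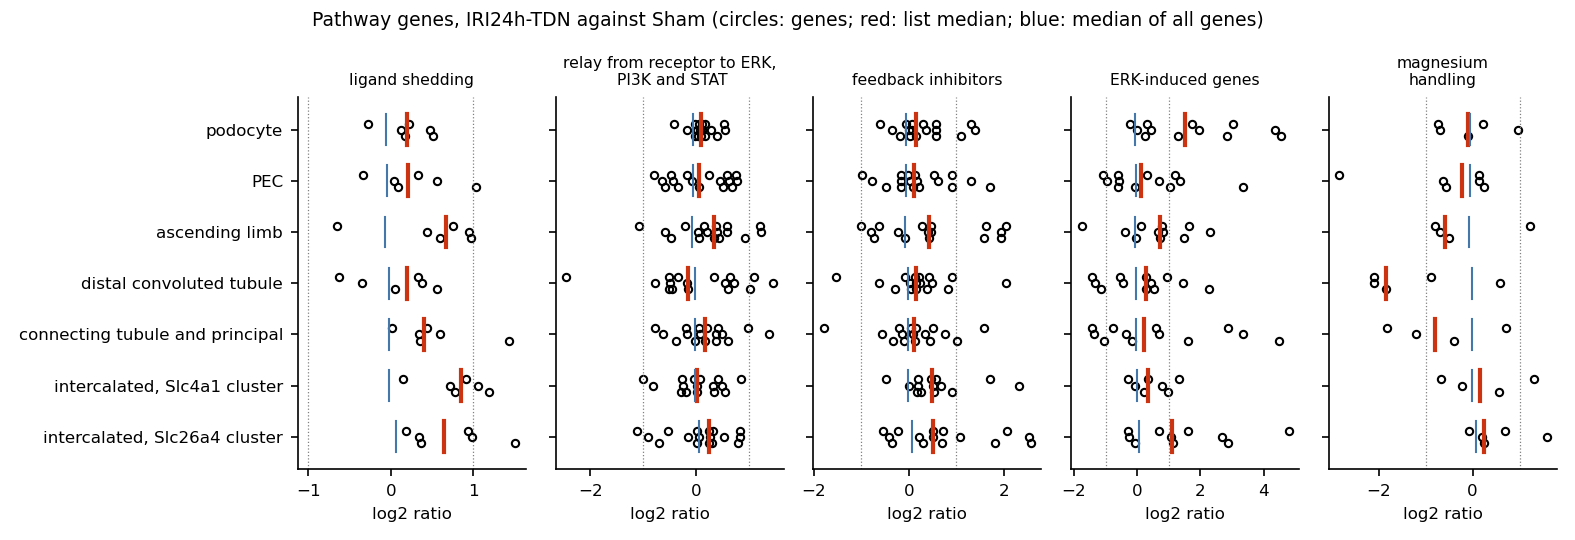
Log2 ratio of CPM in IRI24h-TDN to Sham (x axis) of each listed pathway gene with at least 20 UMIs (circles) by class (y axis); red bars are list medians, blue bars the median of all genes, dotted lines mark 2-fold. ERK-induced genes of podocytes have a median of 1.52 and magnesium-handling genes of the distal convoluted tubule one of -1.85.

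Genes whose level followed that of each member over 29 groups (a class in 1 library) were ranked by Pearson's r of log2(CPM + 1) among 8594 genes. The groups share libraries and depth, so r is a description. Egf was followed most closely by Pth1r (0.77), Prkd1 (0.76) and Cables1 (0.75). For Hbegf these were Syne2 (0.90), Adgrg1 (0.87) and Tns1 (0.87), and for Tgfa Itga3 (0.88), Zfp185 (0.87) and Rad21 (0.87). Btc was followed by Tpd52l1 (0.84), Scnn1g (0.81) and Mlph (0.80). Among the receptors, Egfr was followed by Gstm5 (0.85), D630045J12Rik (0.83) and Rdh10 (0.83), Erbb3 by Map7 (0.94), Tmbim6 (0.92) and Prr15l (0.91), and Erbb4 by Mturn (0.79), Bckdhb (0.77) and Ppp1r1b (0.76).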

How the data were processed

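Counts of UMIs per gene and barcode, 1 table per library, were used as the authors deposited them. The submitters' processing notes name CASAVA 1.8, UMI-tools, Seurat and the build mm10, without their roles. Gene positions on mm10 are from GENCODE and promoters from RefSeq. The aligner and the annotation behind the counts are not given in the sources used here. The study sorted tdT+ cells, mixed them by hand with tdT- cells for Sham and IRI24h-TDN, and sequenced 1 library per condition.

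Barcodes with at least 200 genes and at most 50% mitochondrial UMIs were kept, which left out 2015, 1038 and 195 barcodes in Sham, IRI24h-TDN and IRI24h-TD. Counts were scaled to 10000 per cell, and 2000 variable genes (without members, listed pathway genes other than Trpm6, mitochondrial, ribosomal and haemoglobin genes), 30 components, a Harmony correction between libraries (theta 2), 15 neighbours and Leiden clustering at resolution 1 gave the clusters (python 3.11.15, numpy 2.4.6, scipy 1.17.1, scikit-learn 1.9.0, leidenalg 0.10.2). A cluster was named where fixed markers led it and at least 3 were detected; 4 clusters stayed unnamed. Doublets were scored with simulated doublets and left in, and leaving out the top 6% was an alternative. Deposited UMI counts were summed over a class in a library. CPM have exact Poisson intervals, shares exact Clopper-Pearson intervals, and log2 ratios exact conditional intervals at 95%, which cover counting error only. A count of 0 was set to a floor of 3 UMIs for a fold. A class was compared where both libraries had at least 30 cells. Genes named are all members, listed genes past 2-fold (up to 4 per list by size) and the 3 most alike to each member, besides Adam17, Cd9, Cd44, Nrg1 in PECs, Errfi1 in the ascending limb and the segment genes, which were chosen after their values were seen. The members and lists were chosen with earlier results of these data known. TMM factors came from edgeR 4.0.16 (R 4.3.3). The script for ratios and calls was checked on simulated counts. Results on some listed genes are not reported here.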

Additional observations from a re-analysis of the deposited data

Results flagged for a closer look

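The libraries' difference was set side by side between classes where single classes departed from one another; none of these differences between classes was tested, since each library stands for 1 condition. The log2 ratio of IRI24h-TDN to Sham for Egf was -5.97 in the ascending limb, -4.7 in the distal convoluted tubule and -1.11 in endothelial cells, but 1.34 in the Slc26a4 cluster of intercalated cells. The last 2 values change sign without the cells of highest doublet score. For Btc it was 1.53 in the Slc4a1 cluster and -1.39 in the Slc26a4 cluster, from 34 and 25 UMIs in all. With both intercalated clusters as 1 class it was 0.0694, and markers of the connecting tubule and principal cells, the class with most Btc, stood at 653 CPM in the Slc4a1 cluster in Sham and 2798 CPM in IRI24h-TDN. For Erbb2 it was 1.77 in mesangial and smooth muscle cells and -1.41 in the injured tubule. The Sham cells of the latter class, few of which held Havcr1 or Krt20, gave 8 Erbb2 UMIs.

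The barcodes left out of the classes also held UMIs of the family. Egf stood at 139 CPM in those of Sham (682 UMIs) and 21.6 CPM in those of IRI24h-TDN (88 UMIs). Hbegf stood at 57.1 CPM in the left-out barcodes of IRI24h-TDN and 37.8 CPM in those of IRI24h-TD, against 8.55 CPM in Sham. Tgfa stood at 12 CPM in IRI24h-TD (7 UMIs) and 1.72 CPM in IRI24h-TDN, against 2.44 CPM in Sham. In IRI24h-TDN, Erbb2 stood at 7.63 CPM, Erbb3 at 9.59 CPM and Erbb4 at 11.8 CPM, against 3.05, 3.87 and 3.66 CPM in Sham. Egfr stood at 5.41 CPM in IRI24h-TDN and 3.66 CPM in Sham, and Btc at 1.72 and 0.203 CPM, from 7 UMIs and 1 UMI. The types of these cells were not determined.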

How the results depend on the processing

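Egf in the ascending limb kept its sign in every alternative. Its log2 ratio was -4.49 with at most 20% mitochondrial UMIs, -5.79 at resolution 2, -5.77 with 4000 variable genes, -6.09 without top doublet scores and -5.80 with TMM factors. In the distal convoluted tubule Egf was at -4.82 with at least 500 genes, -4.83 at resolution 2, -4.91 with 4000 variable genes, -4.96 without top doublet scores and -4.56 with TMM factors. In podocytes it was 0.12 with TMM factors and 0.0697 with the Dkk3 and Aldh1a1 cluster joined (added after seeing the data). Hbegf in the ascending limb was 0.63 with 20% mitochondrial UMIs, 2.07 as a mean over cells and 1.75 without the highest cells. Hbegf was 0.97 in the distal convoluted tubule and 0.95 in principal cells as a mean over cells, and 0.92 in principal cells with 20% mitochondrial UMIs. In the Slc4a1 cluster it was 3.86 with 20% and 1.19 with both intercalated clusters as 1 class (also added later), and in PECs -0.12 with 20% and -0.14 with 4000 variable genes. Without top doublet scores Egf turned to -1.08 in the Slc26a4 cluster and to 0.29 in endothelial cells. Members past 2-fold lower numbered 5 with at least 50 UMIs, and 21 were past 1.5-fold higher. The causes were not tested. Of 97 values under alternatives for the main Egf and Hbegf ratios, 75 moved by less than counting error. For the other ratios 235 of 258 did so. A change of sign was counted only for ratios past 2-fold, and 2 such values reversed. Among smaller ratios, Hbegf kept its sign in 6 of 12 alternatives in the Slc26a4 cluster and 11 of 13 in PECs. Tgfa in PECs kept it in 9 of 13, Hbegf in endothelial cells in 9 of 12 and Egf in the Slc4a1 cluster in 12 of 13. Shares of cells moved in 35 of 76 alternatives, levels in 56 of 323, most alike genes in 5 of 13 and counts in 4 of 8. Some classes gave no value at 20% mitochondrial UMIs and other settings, since they fell under 30 cells or went unnamed. No paired analysis was possible because each condition is 1 library. Depth limits Btc, Ereg and the receptors most.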

Other observations

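Monocytic cells held little of the family but differed in the genes that release its ligands. Of 7 shedding genes with enough UMIs, 4 were past 2-fold higher in IRI24h-TDN than in Sham and 1 was lower, where 14.7% of all genes were higher and 7.37% lower. The class was made up differently in the libraries, since its cluster led by Chil3 and Lyz2 held 14 Sham and 196 IRI24h-TDN cells. Adam10, a main releasing protease of EGF and betacellulin, stood at 106 and 372 CPM (log2 ratio 1.81), and Adam9, Adam15 and Rhbdf2 had log2 ratios of 1.71, 1.29 and 1.06, while Adam19 had one of -1.59. In the same cells 6 of 12 genes of the stress of dissociation were lower and 0 higher.

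An unnamed cluster led by Dkk3 and Aldh1a1, with podocyte markers, held 2 ligands in every library. Egf stood there at 252 CPM in Sham, 427 CPM in IRI24h-TDN and 278 CPM in IRI24h-TD, and Hbegf at 169, 57.2 and 81.2 CPM in the same order. A cell of this cluster thus belonged to neither the podocyte nor the PEC values given above.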
